A study of Mus musculus with 9 samples.

Results

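The genes described here belong to 8 families of developmental transcription factors, Sox, Tbx, Pax, Fox, Lhx, Nkx, Irx and the sine oculis homeobox genes, and were scored by the BAP1 ChIP-Seq peaks at their promoters in the murine B cell precursor line Ba/F3. Members were all protein-coding genes of the annotation used whose symbol starts with one of these family names and a number (for Fox a letter and a number), except *Pax5*, *Foxk1*, *Foxk2*, *Foxm1* and *Foxo1*, which were held apart as relatives. This gave 112 of 22366 protein-coding genes: 39 Fox, 18 Sox, 14 Nkx, 13 Tbx, 8 Lhx, 8 Pax, 6 Irx and 6 sine oculis homeobox genes. The rule itself uses symbols, but members and exceptions were chosen with earlier results of these data known, and 3 of the 5 relatives held apart were bound.

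The series holds 9 ChIP-Seq samples, and the peak list analysed here was made from 2 of them. One is an immunoprecipitation with an antibody against BAP1 from wild-type Ba/F3 cells, and the other is an anti-FLAG immunoprecipitation from Ba/F3 cells that stably express murine BAP1 with a triple FLAG tag under puromycin selection. All cultures were grown with conditioned medium as the source of IL-3, the cytokine on which these cells depend. The inputs and the H2AK119ub immunoprecipitations, which include 2 *Bap1* knockout lines (KO3 and KO4) raised from single cells after CRISPR editing, were not analysed here. The list holds 13164 peaks, each 200 bp wide, with coordinates only. Each immunoprecipitation was sequenced once, the depth is unknown, and no comparison below has a replicate check. RNA was not measured in these files, so the labelled cell type could not be compared with its markers and no member could be called expressed or silent.

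BAP1 is a deubiquitinase that removes ubiquitin from histone H2A, erasing the mark (H2AK119ub) that Polycomb repressive complex PRC1 places on chromatin. The genes of all these families encode DNA-binding proteins that direct the formation of organs, limbs, nerves and muscle, and many of them carry Polycomb marks in cells where they are silent. A smaller number of Fox genes have general roles in metabolism, the cell cycle and lymphocytes and are transcribed in many cell types.

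Most members had no BAP1 peak at their promoter. A gene was counted as bound when the middle of a peak lay within 1 kb of the transcription start site (TSS) of any of its transcripts, and such a peak is called gene-proximal. Of the 112 members, 10 were bound, or 8.93% (95% Wilson interval 4.92 to 15.7), and 102 were not. Across all protein-coding genes the share was 39.6%, and among the 22254 genes outside the member list it was 39.7% (39.1 to 40.4). These intervals cover counting error only, and genes are not replicates of the experiment. The bound members included *Foxa3*, *Foxd2*, *Foxj3*, *Foxn2*, *Foxn3*, *Foxo3*, *Foxo4*, *Foxp1* and *Six5*.

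The bound members came from 2 of the 8 families. The forkhead (Fox) family had 8 of 39 genes bound, a share of 20.5% (10.8 to 35.5), and the sine oculis homeobox family had 2 of 6, a share of 33.3% (9.68 to 70.0). None of the 18 Sox genes, which encode HMG-box proteins of stem cells, nerve and gonad, was bound (Wilson upper bound 17.6%). The other families without a bound gene were the 14 Nkx homeobox genes (upper bound 21.5%), the 13 T-box genes (22.8%), the 8 LIM-homeobox genes (32.4%), the 8 paired-box genes (32.4%) and the 6 Iroquois genes (39.0%). Pooled over these 6 families, 0 of 67 genes were bound (Wilson upper bound 5.42%). The limit set by 3 counts of the total was 4.48% for the pooled 67 genes, 16.7% for Sox, 21.4% for Nkx, 23.1% for Tbx, 37.5% for Lhx and for Pax, and 50.0% for Irx. For Lhx and Pax this limit lies just under the share of all genes, and for Irx it lies above it.

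**Figure D1:**
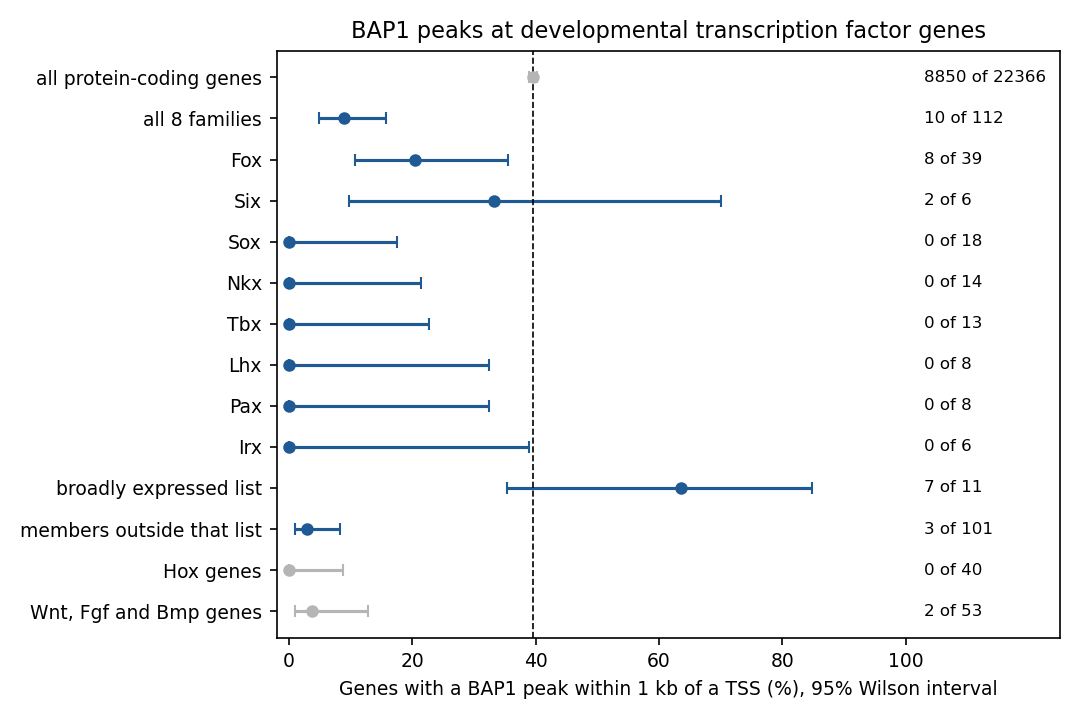
The points give the percentage of genes with a BAP1 peak within 1 kb of a TSS, the bars 95% Wilson intervals and the text the counts, with the share of all protein-coding genes (39.6%) as a dashed line. The pooled members sit at 8.93%, 6 of the families at 0, and the list of broadly expressed members at 63.6%.

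The bound members lay mostly in a list of 11 members, picked from textbook knowledge as broadly expressed or expressed in blood cells. It does not hold every member expressed in blood cells: the T lymphocyte factors *Foxp3* and *Tbx21* count among the members outside it. Of this list 7 genes were bound, a share of 63.6% (35.4 to 84.8), and of the 101 members outside it 3 were bound, a share of 2.97% (1.02 to 8.37). The list was drawn up with results of these data known, so the contrast is a description and no independent evidence. The bound genes of the list were *Foxj3*, a forkhead gene known from muscle and the male germ line, *Foxn2* and the checkpoint factor *Foxn3*, the FoxO factors *Foxo3* and *Foxo4*, which act downstream of PI3K and Akt in growth factor signalling, *Foxp1*, which is required for early B cell development, and *Six5*. The 4 genes of the list without a gene-proximal peak were *Foxj2* (nearest peak 8812 bp away), *Sox12* (53321 bp), *Foxp4* (111189 bp) and *Sox4* (593975 bp), the last a factor needed by early B cell precursors. *Foxp3* and *Tbx21*, outside the list, were also unbound: the peak nearest to *Foxp3* lay at 5251 bp and that nearest to *Tbx21* at 35250 bp.

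The bound genes outside the list included *Foxa3*, a hepatic and gut forkhead factor, and *Foxd2*, a forkhead gene of mesenchyme and kidney. Within Fox, 2 of 31 genes outside the list were bound, or 6.45% (1.79 to 20.7). For *Foxa3* the peak was much closer to another gene. It lay 778 bp upstream of the *Foxa3* TSS but 61 bp from a TSS of *Sympk*, which encodes the mRNA processing scaffold symplekin. When a peak was given only to the gene with the nearest TSS, *Foxa3* was no longer bound and the count fell to 9. At *Foxd2* the more distant of its 2 peaks was 26 bp from the TSS of the long noncoding RNA 9130206I24Rik, and the nearer one was 127 bp from *Foxd2* and 232 bp from the noncoding gene.

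The sequences under the peaks are shown for 7 of the 10 bound members, to give both bound families and the promoter words discussed further on. They come from the mm9 genome (NCBIM37), run 5′ to 3′ along the strand of the gene, and cover the longest stretch of each peak outside annotated exons. Capitals mark the searched words found on either strand: the SP/KLF box GGGCGG (or CCGCCC), the NF-Y box CCAAT (or ATTGG), the ETS word CCGGAAG (or CTTCCGG), the YY1 word AAGATGG (or CCATCTT) and the forkhead word GTAAACA.
Foxa3 (chr7:19609565-19609725, minus strand): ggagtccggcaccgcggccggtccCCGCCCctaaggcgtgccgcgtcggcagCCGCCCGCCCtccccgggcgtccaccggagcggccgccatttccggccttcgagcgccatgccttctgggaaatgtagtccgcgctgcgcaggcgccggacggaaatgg
Foxj3 (chr4:119212061-119212260, plus strand): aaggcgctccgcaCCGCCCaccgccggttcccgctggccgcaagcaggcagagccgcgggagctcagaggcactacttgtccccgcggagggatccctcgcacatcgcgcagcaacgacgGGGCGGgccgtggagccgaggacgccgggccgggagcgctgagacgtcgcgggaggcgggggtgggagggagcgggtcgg
Foxn2 (chr17:88839802-88840001, plus strand): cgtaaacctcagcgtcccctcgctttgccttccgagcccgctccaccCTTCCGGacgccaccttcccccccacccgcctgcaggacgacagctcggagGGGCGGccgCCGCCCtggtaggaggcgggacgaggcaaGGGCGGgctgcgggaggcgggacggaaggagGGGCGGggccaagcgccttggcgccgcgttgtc
Foxo3 (chr10:41996562-41996719, minus strand): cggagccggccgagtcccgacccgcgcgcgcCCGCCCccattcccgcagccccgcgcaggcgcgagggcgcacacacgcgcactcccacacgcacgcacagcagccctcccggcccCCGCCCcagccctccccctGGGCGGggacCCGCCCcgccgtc
Foxo4 (chrX:98449387-98449586, plus strand): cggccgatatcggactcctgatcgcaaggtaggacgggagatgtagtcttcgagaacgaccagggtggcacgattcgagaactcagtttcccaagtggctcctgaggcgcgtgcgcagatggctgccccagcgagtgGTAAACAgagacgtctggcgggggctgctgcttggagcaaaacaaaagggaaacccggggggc
Foxp1 (chr6:98978308-98978408, minus strand): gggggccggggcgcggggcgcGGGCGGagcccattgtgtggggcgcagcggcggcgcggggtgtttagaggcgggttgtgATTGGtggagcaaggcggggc
Six5 (chr7:19679299-19679498, plus strand): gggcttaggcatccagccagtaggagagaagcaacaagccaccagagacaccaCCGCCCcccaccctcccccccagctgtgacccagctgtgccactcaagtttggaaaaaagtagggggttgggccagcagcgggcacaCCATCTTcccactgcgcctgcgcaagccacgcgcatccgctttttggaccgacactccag

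The 10 bound members held 12 gene-proximal peaks, 1 at each of 8 genes and 2 at *Foxd2* and *Foxj3*. Of the 12 peak middles 10 lay upstream of the nearest own TSS, and the positions ran from 778 bp upstream to 717 bp downstream with a median of -116.0 bp. The TSS itself lay under 4 of the peaks. Neither the upstream count nor this one was made over all gene-proximal peaks, so whether they are particular to the members was not tested. Bound members were somewhat further from their peak than bound genes in general, with a median distance of 138.0 bp to the nearest peak for the 10 members against 46.0 bp for the 8840 other bound genes.

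The *Foxp1* peak (chr6:98978209-98978408, minus strand) was centered 2 bp from a TSS. This TSS belongs to a downstream promoter, 238219 bp inside the gene from its 5′ end, and 4 of the 10 annotated TSSs of *Foxp1* lay within 1 kb of the peak. No peak was found at the TSS of the longest transcript, so with 1 TSS per gene *Foxp1* was no longer bound. *Foxn3* was alike in this respect: its gene-proximal peak (chr12:100631190-100631389, minus strand) lay 717 bp downstream of a TSS that is 56277 bp inside the gene. *Foxo3* (chr10:41996520-41996719, minus strand) had its peak over the TSS, with the middle 59 bp upstream, within 1 kb of all 3 of its TSSs. The *Foxo4* peak (chrX:98449387-98449586, plus strand) was 380 bp upstream, the *Foxn2* peak (chr17:88839802-88840001, plus strand) 149 bp upstream and the *Six5* peak (chr7:19679299-19679498, plus strand) 494 bp upstream.

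*Foxj3* carried 2 overlapping peaks, at chr4:119212061-119212260 and chr4:119212214-119212413 on the plus strand. The middle of the first lay 105 bp upstream of its nearest own TSS, and that of the second 2 bp downstream of a different one. For each peak 8 of the 9 annotated TSSs were within 1 kb. The promoter is shared with AA415398, whose nearest TSS was 426 bp from the first peak. The peaks of *Foxd2* (chr4:114581530-114581729 and chr4:114581736-114581935, minus strand) were separated by a few bases, and merging peaks within 500 bp gave 10 peaks at the 10 members. The *Foxa3* peak was at chr7:19609565-19609764, on the minus strand. In all, 5 of the 12 peaks were within 1 kb of a second gene, which was not counted over all gene-proximal peaks.

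**Figure D2:**
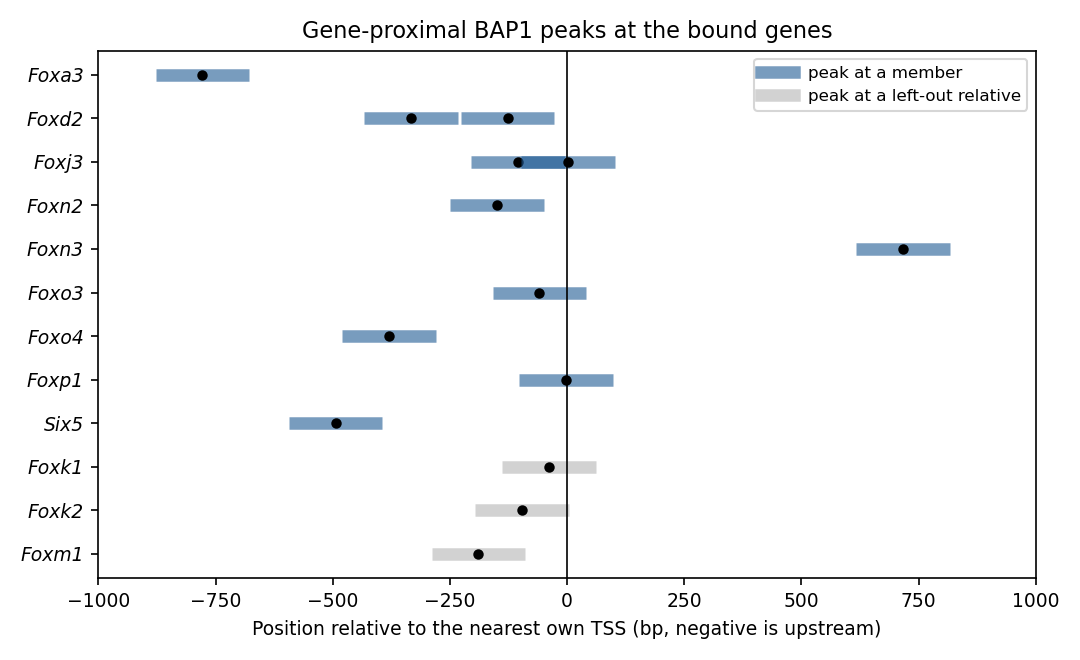
Bars show the 200 bp peaks and dots their middles relative to the nearest own TSS in bp, in blue for 9 of the 10 bound members and in grey for 3 bound relatives outside the member list. Of the 11 member peaks drawn 9 lie upstream, from 2 bp at *Foxp1* to 778 bp at *Foxa3*, and *Foxn3* alone lies far downstream, at 717 bp.

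Close relatives in one subfamily differed in binding. In FoxO, *Foxo3* and *Foxo4* were bound and *Foxo6*, a brain FoxO gene, was not, its nearest peak lying 117915 bp away. In FoxP, *Foxp1* was bound, while the nearest peaks of *Foxp2* and *Foxp4* were 173911 and 111189 bp away. In FoxN, *Foxn2* and *Foxn3* were bound, and *Foxn1*, the thymic epithelium factor of the nude mouse, and *Foxn4*, a retinal and spinal cord factor, were not (29812 and 87340 bp). In FoxA, neither *Foxa1* (315478 bp) nor *Foxa2* (625583 bp), the pioneer factors of endoderm, had a peak near. The ciliogenesis factor *Foxj1* had its nearest peak at 27416 bp, and *Foxd1*, *Foxd3* and *Foxd4* theirs at 37202, 59284 and 60311 bp.

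In the sine oculis homeobox family, *Six5* was bound and its closest paralog *Six4* was not, lying 10275 bp from a peak at the promoter of *Mnat1*. Among the 8 subfamilies with a bound member none was bound throughout. This depends on the member list: the FoxK genes *Foxk1* and *Foxk2*, held apart from it, were each bound.

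Of the 5 relatives held apart from the member list, 3 were bound. *Foxk1* and *Foxk2*, forkhead factors that bind BAP1 and recruit it to DNA, had peaks centered 38 and 96 bp upstream of a TSS. The cell cycle factor *Foxm1* had one 189 bp upstream, which was also 34 bp from a TSS of 5930416I19Rik. *Pax5*, the factor that commits cells to the B lineage, was unbound, with the nearest peak 45136 bp away at the promoter of *Zcchc7*, and *Foxo1*, a FoxO factor of early B cells, was unbound with the nearest peak at 68804 bp. With these 5 included, 13 of 117 genes were bound, or 11.1% (6.61 to 18.1).

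Low CpG content of the promoters did not accompany the low share. The CpG ratio, the observed over the expected number of CpG dinucleotides within 500 bp of the TSS of the longest transcript, had a median of 0.714 over the members and 0.554 over the other genes. Of the members 36, or 32.1%, had a ratio of 0.8 or more, against 21.0% of the other genes. Within this CpG-rich class 5 of 36 members were bound, or 13.9% (6.08 to 28.7), where the share of all protein-coding genes was 76.6% and that of the other genes 77.1% (75.9 to 78.3). The 5 bound members of the class included *Foxj3* (ratio 0.957), *Foxn2* (0.930), *Foxo3* (0.829) and *Six5* (0.816). Outside the broadly expressed list 1 of 29 CpG-rich members was bound, or 3.45% (0.611 to 17.2). Unbound CpG-rich members included *Sox12* (0.989), *Sox11* (0.969), *Foxo6* (0.926) and *Irx2* (0.904).

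The gap was present in the middle classes as well. With a ratio from 0.6 to 0.8, 2 of 43 members were bound, or 4.65% (1.28 to 15.5), against 65.4% (64.2 to 66.6) of the other genes. From 0.4 to 0.6, 1 of 14 members was bound, or 7.14% (1.27 to 31.5), against 31.9% (30.3 to 33.6). Below 0.4, 2 of 19 members were bound, or 10.5% (2.94 to 31.4), and 6.47% of the other genes, a share inside the interval of the members. The bound members of this lowest class were *Foxp1* (0.229) and *Foxn3* (0.232), whose peaks lay at other promoters than the one the ratio describes. Unbound members had a median ratio of 0.695 and bound members 0.801, while among the other genes the medians were 0.294 without and 0.764 with a peak.

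**Figure D3:**
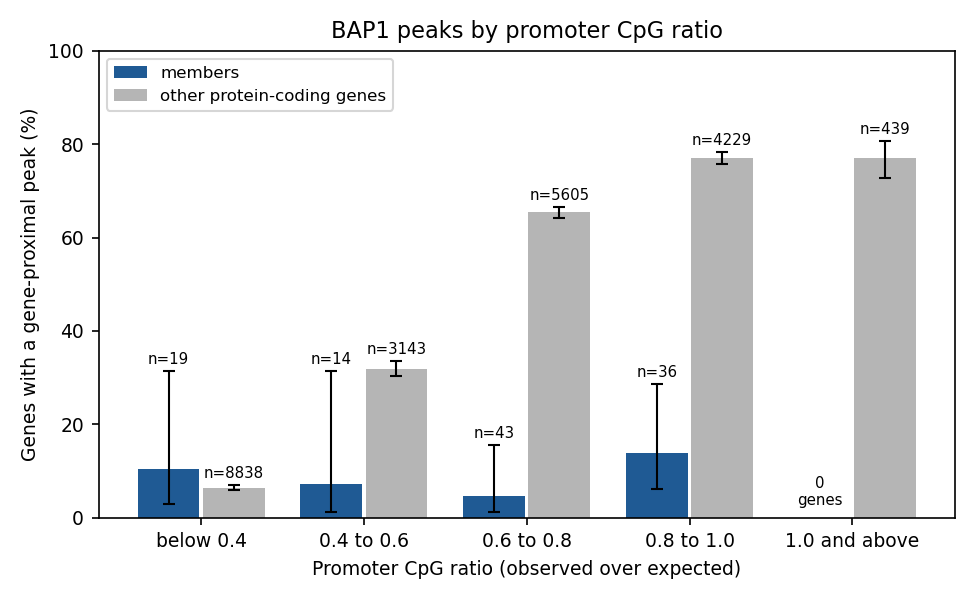
Bars show the percentage of genes with a gene-proximal peak by promoter CpG ratio, for members (blue) and other protein-coding genes (grey), with 95% Wilson intervals and the number of genes above each bar. The grey bars climb from 6.47% below 0.4 to 77.1% between 0.8 and 1.0, and the blue bars stay between 4.65% and 13.9%.

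Members rarely shared a promoter with another protein-coding gene. A TSS of another coding gene lay within 1 kb of an own TSS at 4 of the 112 members (3.57%), namely *Foxa3*, *Foxj3*, *Six6* and *Sox6*, against 13.7% of the other genes. Without such genes 8 of 108 members were bound, or 7.41% (3.80 to 13.9), against 33.9% (33.2 to 34.5) of the other genes. Among bound genes alone, 2 of 10 members (20.0%) and 26.4% of the 8840 other genes shared a promoter in this way.

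Many genes around the unbound members were bound. Within 200 kb of the 102 unbound members lay 486 protein-coding genes outside the families, of which 276 had a gene-proximal peak, or 56.8% (52.3 to 61.1), compared with 39.7% of all coding genes outside the families. Of the 102 unbound members 16 had no such neighbor, and at 68 of the other 86 (79.1%) at least 1 was bound. Of the 13414 other unbound genes 687 had no coding neighbor, and at 8492 of the other 12727 (66.7%) at least 1 was bound. Genes without a neighbor were left out of both percentages, and they were more frequent among the unbound members. Among the 10 unbound members closest to a peak the counts varied. At *Tbx6*, a regulator of paraxial mesoderm, 19 of 27 neighbors were bound, and at *Foxh1*, a Nodal pathway factor, 19 of 22. The nearest peak of each of these genes itself lay at the promoter of a neighbor. At *Nkx1-1* all 4 neighbors were bound, at *Irx5* 1 of 1 and at *Sox18* 9 of 14. The counts were 14 of 27 at *Tbx10*, 13 of 26 at *Sox15*, 5 of 11 at *Foxs1*, 5 of 12 at *Foxp3* and 0 of 1 at *Irx2*. *Sox9*, *Irx1* and *Foxa2* had no coding neighbor outside the families in this range. Around the 10 bound members 27 of 56 neighbors were bound, or 48.2% (35.7 to 61.0). A neighbor of several members was counted once, and neighbors lie close together on the chromosome, so these shares are descriptions.

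Members had a peak in the wider surroundings less often than all genes, and this gap narrowed among unbound genes. A peak was found within 50 kb of a TSS at 45 of 112 members, or 40.2%, against 62.8% of all protein-coding genes. Once gene-proximal peaks were set aside the values were closer: 35 of 102 unbound members (34.3%) and 38.5% of the other unbound genes had a peak within 50 kb, and the median distances were 79426 and 82950 bp. The nearest peak of the unbound members was gene-proximal for another gene at 74 and further than 1 kb from every annotated TSS, or gene-distal, at 28. Of all peaks in the list 76.5% were gene-proximal for some gene. The split was not counted for other unbound genes, so whether it is particular to the members was not tested.

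The 10 unbound members closest to a peak were *Foxh1* (1676 bp), *Irx5* (1887 bp), *Irx2* (1894 bp), *Sox18* (4000 bp), *Tbx6* (4404 bp), *Nkx1-1* (4419 bp), *Foxp3* (5251 bp), *Tbx10* (6237 bp), *Sox15* (7312 bp) and *Foxs1* (7569 bp). For some of them the peak belonged to the promoter of another gene. The peak near *Foxh1* was 9 bp from a TSS of *Ppp1r16a*, that near *Tbx6* was 68 bp from *Ypel3*, that near *Tbx10* was 146 bp from *Acy3* and that near *Sox15* was 16 bp from *Mpdu1*. The peak near *Irx5* was 211 bp from a TSS of 4933436C20Rik. For *Irx2*, *Sox18*, *Nkx1-1* and *Foxs1* the member itself was the nearest annotated gene, with the peak upstream of the first 3 and downstream of the TSS of *Foxs1*. No member lay between 778 and 1676 bp, so the limit of 1 kb did not divide members at similar distances.

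At the other end, 7 of 112 members (6.25%, interval 3.06 to 12.3) had no peak within 500 kb, against 7.84% of all protein-coding genes. Among the 5 most distant were *Sox11*, a factor of neural progenitors (1286195 bp), *Sox9*, the regulator of cartilage and testis formation (773180 bp), *Irx1* (663180 bp) and *Foxa2* (625583 bp).

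**Figure D4:**
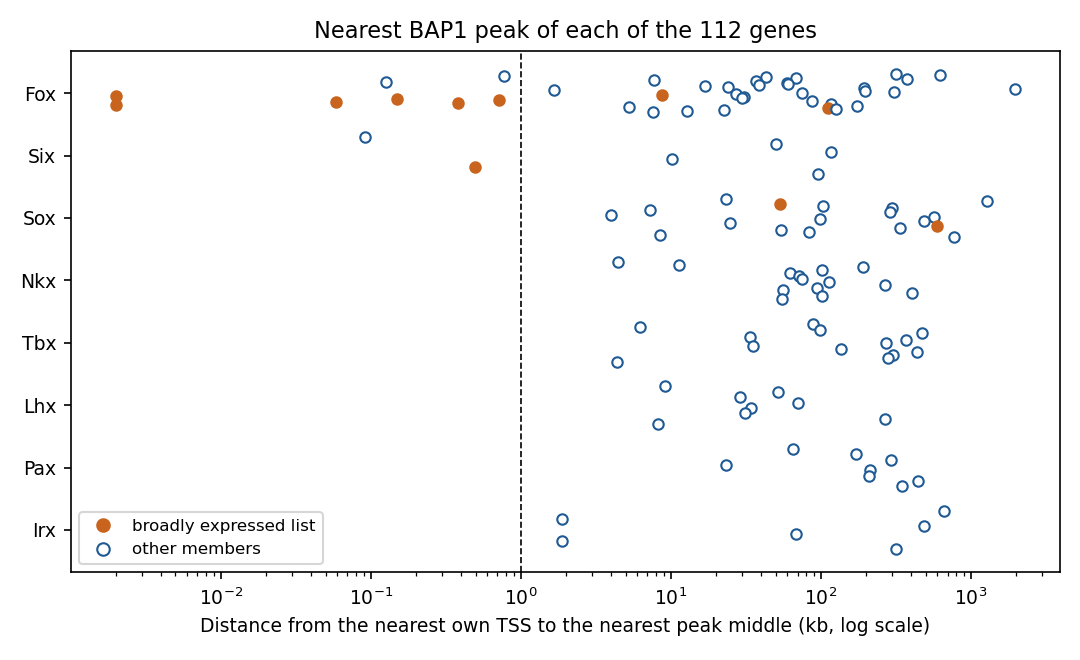
Each point is 1 of the 112 members, placed by the distance in kb (log scale) from its nearest own TSS to the middle of the nearest peak, in rows by family, with the limit of 1 kb dashed and the broadly expressed list filled. The 10 genes left of the line are 8 Fox genes and 2 sine oculis homeobox genes, and all others lie at 1676 bp or further.

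For gene-distal peaks the interval of the members covered the share of the other genes. A gene-distal peak lay within 50 kb of 18 of 112 members, or 16.1% (10.4 to 24.0), and of 19.9% (19.3 to 20.4) of the other genes. Restricted to genes without a gene-proximal peak, the shares were 13.7% (8.36 to 21.7) and 15.8% (15.2 to 16.5). Peaks inside the gene but further than 1 kb from every own TSS were found at *Foxn3* and at *Lhx9*, 1 each, which is 1.79% (0.491 to 6.28) of the members against 5.11% (4.83 to 5.41) of the other genes. The interval of the members covers the share of the other genes. Members were also shorter, with a median gene length of 5993 bp against 15498 bp, and shares at equal length were not tested. *Lhx9*, a gonad and limb factor, falls outside the rule for named genes and was chosen after its value was seen.

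The peaks at members were GC-rich, as gene-proximal peaks were in general. Their GC content ran from 60.5% to 81.5% with a median of 72.8%, against a median of 67.0% over all gene-proximal peaks, and their number of CpG dinucleotides from 8 to 33. The box GGGCGG was present, on either strand, in 10 of 12 member peaks (83.3%), compared with 68.6% of all 10073 gene-proximal peaks, 49.0% of the promoter windows of unbound members and 40.6% of those of all protein-coding genes, each window being 200 bp around the TSS. The peaks without it were that of *Foxo4* and the second peak of *Foxj3*, which held no searched word. The box CCAAT was in 2 of 12 member peaks (16.7%), among them that of *Foxp1*, against 30.0% of all gene-proximal peaks. It was present in 35.3% of the windows of unbound members and in 26.8% of all windows.

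The ETS word CCGGAAG was in 1 member peak (8.33%), that of *Foxn2*, against 20.2% of all gene-proximal peaks. It was in 1 of 102 windows of the unbound members (0.980%) and in 9.36% of all windows. The latter include the windows of bound genes, and other unbound genes were not counted separately. Whether the low share is particular to the members was therefore not tested. The YY1 word AAGATGG was found at *Six5* only, where all gene-proximal peaks had it in 6.33%, and the forkhead word GTAAACA at *Foxo4* only, where the general share was 2.09%. The NRF1 word GCGCATGCG, the CRE TGACGTCA, the E-box CACGTG, the RUNX word TGTGGTT and the GATA word AGATAA were in none of the 12 member peaks, and in 4.04%, 3.35%, 8.06%, 1.77% and 1.79% of all gene-proximal peaks. A match is an exact run of letters, the words can overlap, and with 12 peaks the shares of members are coarse.

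Other families of developmental genes also had few bound members. Of the Hox genes, the homeobox genes of the body axis, 0 of 40 were bound (Wilson upper bound 8.76%, limit of 3 counts 7.50%). CpG-rich promoters were found at 8 of these 40 genes, and at 21.0% of the protein-coding genes outside the member list. For 0 bound of these 8 the Wilson upper bound was 32.4%. Of the genes with Wnt, Fgf or Bmp symbols, 2 of 53 were bound, or 3.77% (1.04 to 12.8), namely *Fgf2* and *Bmp2k*, which encodes a kinase and no ligand. Whether transcription, H2AK119ub or the threshold of the peak caller moved with these shares was not tested.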

How the data were processed

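ChIP-Seq was done on Ba/F3 cells with chromatin from 9 samples. The authors aligned paired-end reads of 50 bp to build mm9 (Bowtie 1.0.0), called peaks over input DNA in MACS 1.4.2, and deposited 1 list of 200 bp intervals from the anti-BAP1 and anti-FLAG samples. The list has coordinates and no score, and neither its threshold nor the rule that joined both samples is given in the sources used here. A looser or stricter threshold would change every share. Depth could not be derived. The number of per-sample columns matched to no sample was 0.

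Peaks were placed by their middle on GENCODE release M1 (NCBIM37, the same build) with Python 3.11.15, numpy 2.4.6, scipy 1.17.1 and pysam 0.24.0. A gene was bound when a middle lay within 1 kb of any own TSS. Mitochondrial genes were left out, and the 2 gene entries of *Sox4* were joined. Sox1 had no entry, and Foxl1 is typed as a pseudogene there. CpG ratios used 500 bp on either side of the TSS. Exact words were searched on both strands in peaks and in 200 bp windows at TSSs. Shares have 95% Wilson intervals, and for counts of 0 the limit of 3 counts of the total is given beside the Wilson bound. The shares of all genes with a gene-body peak, with a bound neighbor or without a peak within 500 kb were added after seeing the data. With 1 list and no replicates no test was made. The members and gene lists were chosen with earlier results of these data known. The genes named are the bound members, their subfamily partners, the 10 unbound members closest to and the 5 farthest from a peak, the 5 relatives and the fixed lists. The scripts were tested on simulated data. Alternatives were other windows, peak edges, 1 TSS per gene, coding transcripts, nearest-TSS ownership, other CpG definitions and merged peaks. Results for some members are not reported here by name.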

Additional observations from a re-analysis of the deposited data

How the results depend on the processing

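Of 92 values under alternatives, 81 stayed near the main value and 11 did not. Counts of genes were held to within 1.5 times the main count (a count of 0 to 0), and shares among CpG-rich promoters to the Wilson interval of the main share. A window of 500 bp, 1 TSS per gene, coding transcripts and nearest-TSS ownership can only keep or lower a count. Families at 0 therefore could not move under these settings. The member share among CpG-rich promoters was held to a wide interval (6.08 to 28.7), which few changes would leave. With a window of 5 kb 16 members were bound in place of 10 (*Foxh1*, *Irx2*, *Irx5*, *Nkx1-1*, *Sox18* and *Tbx6* were added), with 2 Irx, 1 Nkx, 1 Sox and 1 Tbx gene and 9 members outside the broadly expressed list. With 2 kb the count was 13, with 2 Irx genes and 6 outside the list. Since a wider window takes in more distant peaks by construction, the counts can only grow. With 500 bp 8 members were bound (*Foxa3* and *Foxn3* were lost), with 1 TSS per gene 8 (*Foxn3* and *Foxp1*), with nearest-TSS ownership 9 (*Foxa3*), and with peak edges or coding transcripts 10. Among CpG-rich promoters the share of other genes was 70.7% at a ratio of 0.6, 75.0% with 250 bp windows and 75.8% with the highest ratio over all TSSs, and that of members 8.86%, 11.4% and 14.6%; the cause was not tested. At a ratio of 1.0 no member remained. A stricter peak threshold was not run because the list has no score. No paired analysis was possible because no comparison between samples was made. The unknown depth limits every absence: a weakly bound promoter would not be listed.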

Other observations

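In the sequences under the member peaks one further word was noticed and then searched, so it was chosen after the data were seen. ATGTAGTC, on either strand, was present in the peaks of *Foxa3* and *Foxo4*, 2 of 12 member peaks (16.7%). All 10073 gene-proximal peaks had it in 0.675%, the promoter windows of the 102 unbound members in 0 cases and those of all protein-coding genes in 0.595%. The *Foxa3* peak is the one that lies 61 bp from a TSS of *Sympk*.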
